A study of Mus musculus with 4 samples.

Results

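Proteasome genes were described in regulatory T cells (Treg, the Foxp3-expressing CD4 T cells that hold immune responses in check) of mice injected with an agonistic antibody against death receptor 3 (DR3) or with a control antibody. Members were the genes whose symbol starts with Psma, Psmb, Psmc, Psmd, Psme, Psmf or Psmg followed by a digit, taken from probe sets with exactly 1 gene symbol, and each gene was read from its brightest probe set. This gave 49 of the 22180 genes with such a probe set. Of these, 43 were bright enough to be tested, meaning that the gene exceeded the array-wide median on 2 or more of the 4 arrays, and so were 12114 genes in all. By role the 49 were 14 core subunits, 17 cap subunits, 4 immune or thymic catalytic subunits, 4 activators and 8 assembly factors or inhibitors, together with Psmc3ip, a meiotic recombination gene, and Psme3ip1, the gene of a Psme3-binding protein, which share only the name. Psma4 and Psme2b had no probe set with exactly 1 symbol and are not analysed here.

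The proteasome is the protease that degrades proteins tagged with ubiquitin. Its core particle is a barrel of alpha and beta rings with the catalytic sites on 3 beta subunits, and its cap recognises the tag, removes it and threads the substrate in with a ring of ATPases. Interferon-gamma and related signals replace the 3 constitutive catalytic subunits with immune ones, which changes the peptides offered to major histocompatibility complex (MHC) class I, and lymphocytes carry many such immunoproteasomes at rest.

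The mice of both groups were of the strain labelled Foxp3Luci-DTR-4(B6 Albino), and CD4 cells positive for Foxp3 and green fluorescent protein were sorted 4 days after intraperitoneal injection of the antibody, which for the control group was an isotype control. There were 2 arrays per group. The sources used here give neither the age of the mice nor the organ sorted nor whether mice were pooled. They also leave unsaid whether the 2 arrays of a group came from separate animals, so p-values reflect the spread between these arrays alone, possibly a technical one. The comparison asks which Treg transcripts differ when the receptor is engaged in vivo.

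Across genes, the correlation was r = 0.992 within the anti-DR3 group, 0.989 within the control group and up to 0.980 between groups. Foxp3 (log2 intensity 11.8 to 11.9), Cd4 (10.66 to 10.99) and Cd3e (12.3 to 12.4), which define the sorted cells, were bright on all 4 arrays. Of 6 tested Treg markers Ikzf2 rose and Il2ra fell, by 0.58 and 0.49. In limma 544 genes were higher and 178 lower after anti-DR3, against 348 and 243 after centring each array on its median over tested genes and 949 and 146 after centring on its median over all probe sets. All levels given are log2 intensities. A difference is the anti-DR3 mean less the control mean on that scale, with limma's standard error (SE) and n = 2 arrays per group. A level is compared between arrays for 1 gene and never between genes, since probe sets differ in brightness. These are bulk samples, in which more cells of a kind and more RNA per cell cannot be told apart.

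After anti-DR3 4 proteasome genes rose and 0 fell. They were the assembly chaperone gene Psmd10, the immune catalytic subunit gene Psmb9 and the alpha ring genes Psma1 and Psma7, and their differences ran from 0.42 to 0.60, or 1.34- to 1.51-fold. The other 39 tested members did not pass. The 4 made up 9.30% of the 43 tested members, where 4.49% of all genes tested were called higher, and for calls lower the shares were 0% and 1.47%.

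The differences leaned upward across the members, though most were small. Of the 43, 34 had a positive difference (79.1%, against 52.4% of all genes tested), and the median was 0.15, against 0.01 over all genes tested. The groups did not overlap, with both anti-DR3 arrays higher, for 27 members (62.8%, against 31.6% of all genes), and with both lower for 2 (4.65%, against 24.6%). An unadjusted p under 0.05 in limma was reached by 16 members with a positive difference (37.2%, against 16.6%) and by 1 with a negative one (2.33%, against 9.57%). At an adjusted p under 0.10 the count was 12 higher (27.9%, against 9.67%).

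**Figure D1:**
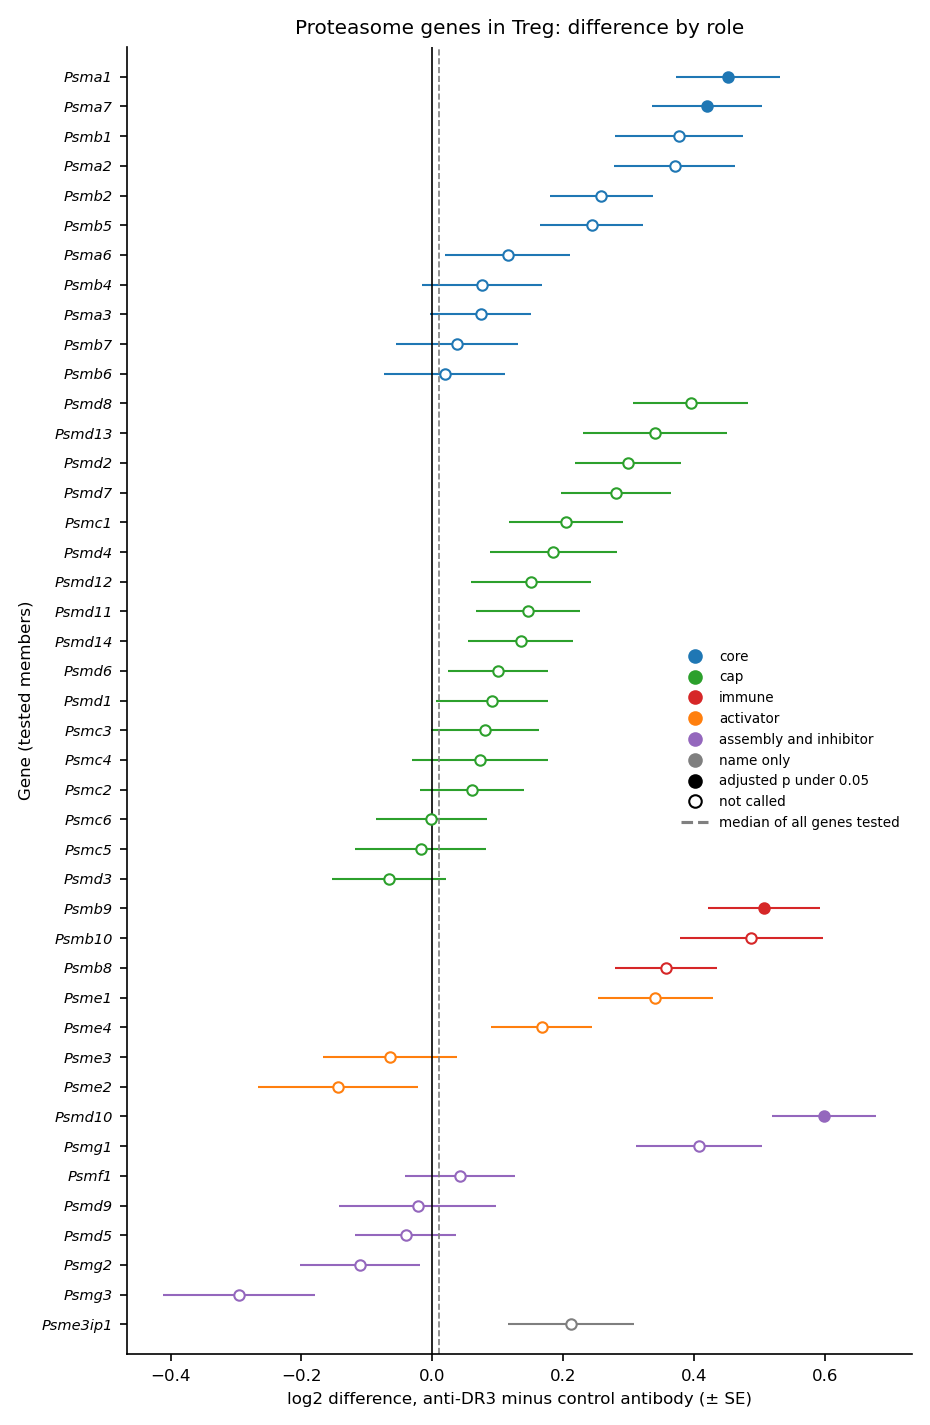
Difference of each tested proteasome gene between anti-DR3 and control antibody (x axis, log2 scale, bars ± SE of limma, n = 2 arrays per group), with genes on the y axis coloured by role. Filled points are the 4 genes with an adjusted p under 0.05, at 0.42 to 0.60; open points did not pass, and the dashed line is the median of all genes tested, 0.01.

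The calls needed all 4 arrays. With any 1 array left out limma called 0 of the 43 members, where 0 to 245 of all genes were called higher, and 10 to 16 members had an unadjusted p under 0.05; the smallest adjusted p among the members ran from 0.0578 (without control antibody replicate 2) to 0.150 (without anti-DR3 replicate 2). The scaling also set the number of calls. Centring each array on the median of the genes tested lowered every difference by 0.061 and left Psmd10 as the 1 call, at 2.33% of members against 2.87% of all genes. Centring on the median of all probe sets, an alternative added after seeing the data, raised every difference by 0.053 and gave 9 calls, at 20.9% against 7.83%. The 9 held the 4 genes named above together with Psma2, Psmb8, Psmb10, Psmd8 and Psmg1.

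**Figure D2:**
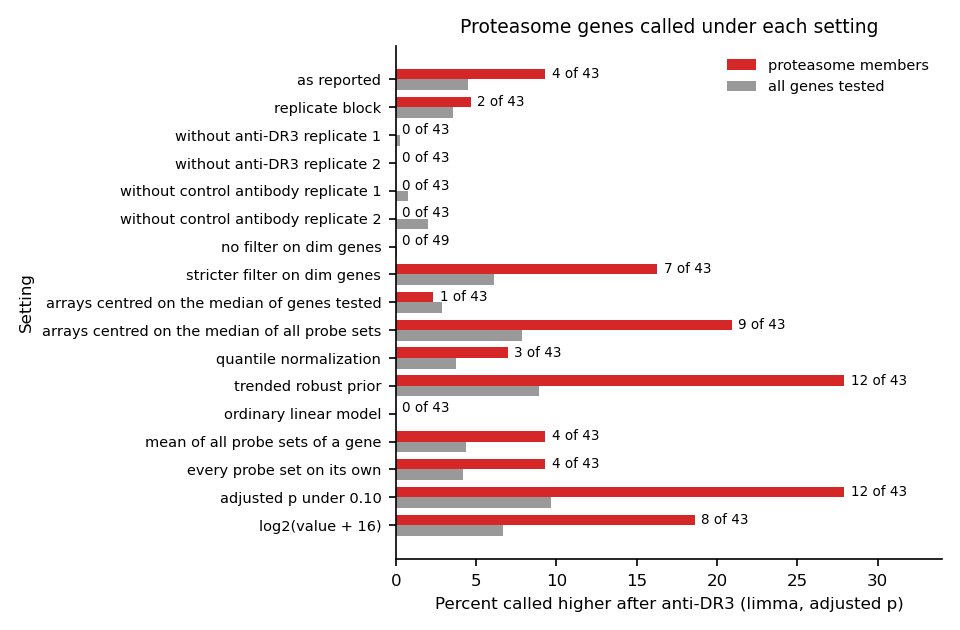
Percent of proteasome members (red, with counts beside the bars) and of all genes tested (grey) that limma called higher after anti-DR3 (x axis, from 0) under the reported setting and 16 alternatives (y axis). The members' count ran from 0 (any array left out, no filter on dim genes, ordinary linear model) to 12 with a trended robust prior or an adjusted p under 0.10.

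The promoters of the 4 genes that rose are shown because these genes moved in the same direction in 3 roles. These roles are alpha ring, immune catalytic subunit and assembly chaperone, and none of the 4 is a cap subunit. Sem1, a small cap subunit outside the naming rule, also rose and is described below. The sequences are from RefSeq on GRCm38.p6 and run 5′ to 3′ on the gene's own strand, from 250 bases before the start to 50 bases after it. Capitals mark CCAAT or its reverse complement ATTGG, the letters of the CCAAT box.
Psmd10, chrX:140956662-140956961, minus strand: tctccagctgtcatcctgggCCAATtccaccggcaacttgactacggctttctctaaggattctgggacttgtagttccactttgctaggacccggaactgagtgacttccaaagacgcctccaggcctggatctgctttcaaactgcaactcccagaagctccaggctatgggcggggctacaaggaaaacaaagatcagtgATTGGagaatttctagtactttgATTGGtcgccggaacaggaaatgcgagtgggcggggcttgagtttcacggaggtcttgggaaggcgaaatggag
Psmb9, chr17:34187281-34187580, minus strand: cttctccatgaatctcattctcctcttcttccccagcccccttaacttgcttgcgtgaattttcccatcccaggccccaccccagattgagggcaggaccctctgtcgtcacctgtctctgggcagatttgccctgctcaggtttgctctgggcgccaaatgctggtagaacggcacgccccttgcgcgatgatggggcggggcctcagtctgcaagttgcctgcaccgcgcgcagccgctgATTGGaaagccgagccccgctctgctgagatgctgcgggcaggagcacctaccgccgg
Psma1, chr7:114276067-114276366, minus strand: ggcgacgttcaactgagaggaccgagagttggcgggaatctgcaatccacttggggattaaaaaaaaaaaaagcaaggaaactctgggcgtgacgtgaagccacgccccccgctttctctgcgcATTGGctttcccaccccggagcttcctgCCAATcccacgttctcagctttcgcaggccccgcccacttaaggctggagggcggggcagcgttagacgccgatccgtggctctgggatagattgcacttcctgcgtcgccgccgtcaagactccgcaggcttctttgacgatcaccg
Psma7, chr2:180042415-180042714, minus strand: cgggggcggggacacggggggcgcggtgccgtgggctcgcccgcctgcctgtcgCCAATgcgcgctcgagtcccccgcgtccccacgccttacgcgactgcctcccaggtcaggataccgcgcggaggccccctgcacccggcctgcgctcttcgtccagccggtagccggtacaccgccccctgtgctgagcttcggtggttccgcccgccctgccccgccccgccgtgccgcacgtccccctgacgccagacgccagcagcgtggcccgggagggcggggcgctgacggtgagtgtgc

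Each of the 4 windows held the CCAAT letters on 1 strand or the other, with 3 matches for Psmd10, 2 for Psma1 and 1 each for Psmb9 and Psma7. The motif was common: 37.4% of all 32851 promoter windows of the same length held it, and 16 of the 41 members with a window in the table (39.0%). The 4 motifs searched were chosen after the values of the genes were seen, and this one was singled out after the search. The others, each searched on both strands, were the interferon-stimulated response element (GAAA, any 2 bases, GAAA), the gamma-activated sequence TTCNNNGAA and the antioxidant response element core TGACNNNGC, and none of the 4 windows held them. Among the 41 members the interferon-stimulated response element stood in 5 (12.2%, against 3.44% of all windows). These were Psmb3, Psmd4, Psmd9, Psme1 and Psmg4, of which Psmb3 and Psmg4 were too dim to test and none is an immune catalytic subunit. The gamma-activated sequence stood in 3 (7.32%, against 8.30%), namely Psmb8, Psmd2 and Psmg1, and the antioxidant element in 6 (14.6%, against 12.4%). A match is a run of letters and not a bound site, and a missing match to these exact letters does not show that an element is absent. Psmb9 and Tap1, the peptide transporter gene, start 225 bases apart on opposite strands, and their windows share 275 of 300 bases.

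The immune catalytic subunits had the highest median of any role, 0.49 over 3 tested genes. All 3 had both anti-DR3 arrays above both control arrays, where 31.6% of all genes did. Psmb9, which takes the place of Psmb6, was at 8.06 and 8.05 on the anti-DR3 arrays against 7.48 and 7.62 on the control arrays. It rose by 0.51 ± 0.085 (SE), or 1.42-fold (adjusted p = 0.0316, limma). The anti-DR3 arrays lay close together, and the gap between the groups was wider than the gap between the control arrays.

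Psmb10, which takes the place of Psmb7, read 8.89 and 8.997 on the anti-DR3 arrays against 8.33 and 8.58 on the control arrays. Its difference of 0.49 ± 0.11 did not pass (adjusted p = 0.0605, limma). The control arrays of this gene lay farther apart than those of Psmb8 and Psmb9, and without control antibody replicate 1 the difference was 0.36. Psmb8, the immune counterpart of Psmb5, was at 9.12 and 9.17 against 8.80 and 8.77. Here both groups were tight, yet the difference of 0.36 ± 0.078 did not pass either (adjusted p = 0.0565, limma).

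The constitutive catalytic subunits had smaller differences, with a median of 0.04. Psmb5, which carries the chymotrypsin-like site, was at 7.47 and 7.40 on the anti-DR3 arrays against 7.19 on both control arrays. Its groups did not overlap, and its difference of 0.24 ± 0.079 did not pass (adjusted p = 0.126, limma). Psmb6, the caspase-like subunit, gave 7.32 and 7.26 against 7.35 and 7.18, and Psmb7, the trypsin-like subunit, 8.57 and 8.67 against 8.66 and 8.50. Their groups overlapped, with differences of 0.02 (95% interval -0.21 to 0.25) and 0.04 (-0.19 to 0.27). The sign of both turned negative under the first of these centrings, on the genes tested (-0.04 and -0.02).

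**Figure D3:**
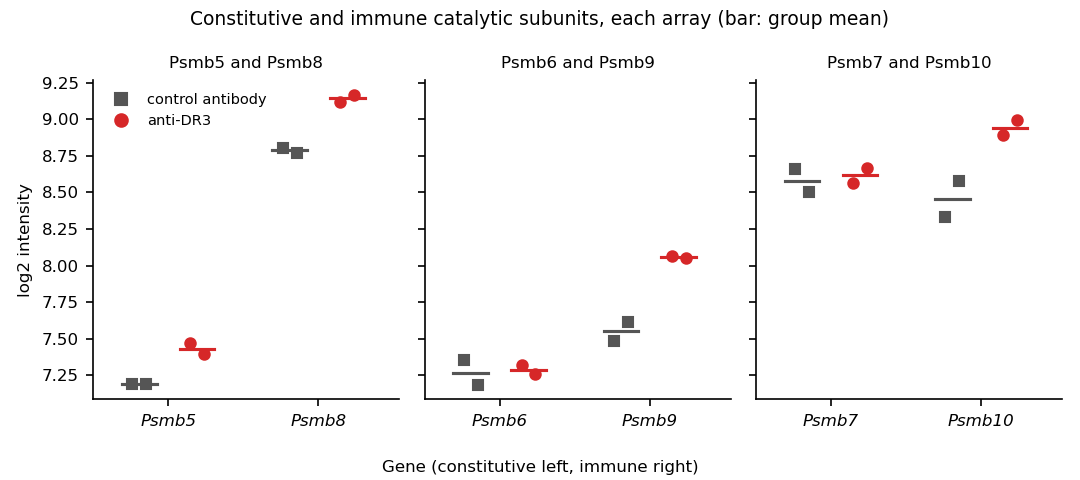
Log2 intensity (y axis) of the 3 constitutive catalytic subunits and the immune subunit that replaces each (x axis, 1 pair per panel) on the 2 control antibody arrays (squares) and the 2 anti-DR3 arrays (circles); bars are group means. Groups are to be compared within a gene: they lie apart for Psmb5, Psmb8, Psmb9 and Psmb10 and overlap for Psmb6 and Psmb7.

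The shift within each pair was read as the log2 ratio of the immune over the constitutive subunit on each array, set to a mean of 0 over the control arrays. For Psmb9 over Psmb6 it was 0.46 and 0.51 on the anti-DR3 arrays and -0.15 and 0.15 on the control arrays, a change of 0.49 with a pooled SD of 0.15. For Psmb10 over Psmb7 it was 0.45 and 0.45 against -0.20 and 0.20, a change of 0.45 with a pooled SD of 0.20. These ratios were 1.40- and 1.37-fold higher after anti-DR3. For Psmb8 over Psmb5 the change was 0.11 with a pooled SD of 0.063 (0.05 and 0.18 against 0.01 and -0.01), where both of its genes had a positive difference. All 3 ratios lay apart between the groups. Without control antibody replicate 1 the change of Psmb10 over Psmb7 was 0.25, and without anti-DR3 replicate 2 that of Psmb8 over Psmb5 was 0.052, while without anti-DR3 replicate 1 the latter was 0.18. The exact permutation test gave p = 0.33 for each of the 3 pairs (two-sided, and 0.33 adjusted over the 3), which is the smallest value that 2 arrays against 2 allow. A changed ratio shows unequal change, not that the constitutive subunit stayed the same.

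The core had 11 tested members outside the immune subunits, all with a positive difference and a median of 0.24, and 2 of them rose. Of all genes tested 52.4% had a positive difference and 4.49% were called higher. With no filter on dim genes, which adds Psma5, Psma8 and Psmb3 (differences 0.02, -0.29 and -0.07), the core median was 0.096. The 2 core genes that rose belong to the alpha ring, which gates the entry to the barrel. Psma1 was at 7.90 and 7.95 on the anti-DR3 arrays against 7.44 and 7.50 on the control arrays, a rise of 0.45 ± 0.080, or 1.37-fold (adjusted p = 0.0357, limma). Psma7 was at 8.49 and 8.60 against 8.15 and 8.10 and rose by 0.42 ± 0.084, or 1.34-fold (adjusted p = 0.0458, limma). For both genes the gap between the groups was wider than that between the arrays of a group.

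The other 3 tested alpha ring genes did not pass. Psma2 came nearest, with 8.90 and 9.08 against 8.64 and 8.60, a difference of 0.37 (adjusted p = 0.0739, limma). Psma3, at 9.61 and 9.65 against 9.54 and 9.57, did not overlap between the groups but differed by 0.07. Psma6 overlapped, with a difference of 0.12.

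Of the structural beta ring genes Psmb1 and Psmb2 were higher on both anti-DR3 arrays, and neither passed. Psmb1 gave 9.27 and 9.17 against 8.94 and 8.75, a difference of 0.38 (adjusted p = 0.0799, limma). Psmb2 gave 8.07 and 8.09 against 7.85 and 7.79, a difference of 0.26 (adjusted p = 0.111, limma). Psmb4 overlapped between the groups, at 0.08.

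In the cap 0 of the 17 member genes passed in limma, where 4.49% of all genes tested were called higher. Sem1, a small lid subunit outside the naming rule, did pass (adjusted p = 0.0464, limma). Of the 17, 4 had a positive difference with an unadjusted p below 0.05 (16.6% of all genes tested did), and Psmd8 was called under a stricter filter on dim genes. The median was 0.14. Both anti-DR3 arrays lay above both control arrays for 12 of the 17, where 31.6% of all genes did, and below them for none, where 24.6% did. The 12 were 7 of the 8 lid genes, 3 of the 6 ATPase genes and 2 of the 3 other base genes, with medians of 0.15, 0.07 and 0.19. The lid is the part that removes ubiquitin, and the differences between these parts were not tested.

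Psmd8, a lid subunit, was at 9.29 and 9.17 on the anti-DR3 arrays against 8.79 and 8.88 on the control arrays. Its difference of 0.39 ± 0.087 missed the threshold (adjusted p = 0.0580, limma). Psmd7, the partner of the lid's deubiquitinase, gave 8.34 and 8.39 against 8.14 and 8.03, a difference of 0.28 (adjusted p = 0.107, limma). Psmd13, also of the lid, had the loosest control arrays of these, with 6.80 and 6.80 against 6.60 and 6.32, and a difference of 0.34 (adjusted p = 0.124, limma). Psmd14, the deubiquitinase itself, was at 8.002 and 8.08 against 7.89 and 7.92. The differences of Psmd14, Psmd11, Psmd12 and Psmd6 were 0.14, 0.15, 0.15 and 0.10, and Psmd3 overlapped at -0.07.

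The base of the cap holds the ATPases and the ubiquitin receptors. Psmd2, the scaffold that docks ubiquitin shuttles, was at 8.14 and 8.05 on the anti-DR3 arrays against 7.79 and 7.80 on the control arrays. Its difference of 0.30 ± 0.081 did not pass (adjusted p = 0.0849, limma). Psmd4, a ubiquitin receptor, gave 7.996 and 7.86 against 7.82 and 7.67, which is 0.19, and Psmd1 overlapped at 0.09.

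The 6 ATPase genes stood near 0, with a median of 0.07. Psmc1 had the largest difference of them, 0.20, with 7.69 and 7.54 against 7.41 on both control arrays (adjusted p = 0.208, limma). Psmc3 gave 7.32 and 7.21 against 7.18 and 7.18, which is 0.08. Psmc2 and Psmc4 were at 0.06 and 0.07, and Psmc5 and Psmc6 overlapped at -0.02 and -0.0014. The SE of these 6 genes was 0.079 to 0.104, and 0 of them had an unadjusted p under 0.05 in limma. Of all genes tested 16.6% did with a positive difference and 9.57% with a negative one.

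Activators, which open the barrel in place of the cap, went in different directions. In limma 0 of 4 passed, where 4.49% of all genes tested were called higher and 1.47% lower. An unadjusted p below 0.05 with a positive difference was reached by 1 (16.6% of all genes tested did). Psme1, whose product forms the interferon-inducible activator with that of Psme2, was at 10.37 and 10.48 on the anti-DR3 arrays against 10.14 and 10.03 on the control arrays, a difference of 0.34 ± 0.088 (adjusted p = 0.0789, limma). Psme2 gave 6.68 and 6.44 against 6.82 and 6.59, which overlapped at -0.14 ± 0.12. The Psme2 difference ran from -0.26 (without anti-DR3 replicate 1) to -0.026 (without anti-DR3 replicate 2), and whether it differs from that of Psme1 was not tested. Another probe set lists Psme2 with 2 further symbols, and so is no member; it gave 8.57 and 8.27 against 8.50 and 8.76.

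Psme3, the nuclear activator, overlapped between the groups at 7.41 and 7.32 against 7.54 and 7.32. Its difference was -0.06 and turned positive without control antibody replicate 1 (0.04). Psme4, an activator linked to the breakdown of acetylated histones, was at 8.67 and 8.63 against 8.49 and 8.47. Both groups of Psme4 were tight and apart, with a difference of 0.17 ± 0.077 (adjusted p = 0.239, limma).

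Among assembly factors and the inhibitor the largest rise of all members stood beside the lowest value. Psmd10, which helps to assemble the cap's base and is also known as gankyrin, a binding partner of the retinoblastoma protein, was at 6.90 and 6.98 on the anti-DR3 arrays against 6.35 and 6.33 on the control arrays. It rose by 0.60 ± 0.080, or 1.51-fold (adjusted p = 0.0190, limma), and ranked 194 of 12114 genes by p. Its difference ran from 0.56 to 0.64 with any 1 array left out, and its adjusted p from 0.0587 to 0.150.

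The other base chaperones did not share this, since Psmd5 gave -0.04 and Psmd9 -0.02. Of the chaperones of the alpha ring, Psmg1 was at 6.02 and 6.11 against 5.75 and 5.56, a difference of 0.41 ± 0.097 that did not pass (adjusted p = 0.0671, limma). Its partner Psmg2 gave -0.11 and overlapped. Psmg3 had the lowest difference of all members, -0.30 ± 0.12 (6.36 and 6.09 against 6.58 and 6.45, adjusted p = 0.179, limma). Psmf1, the proteasome inhibitor, gave 0.04. The median over the 7 tested was -0.02, and it turned positive without control antibody replicate 1 (0.07), with no filter on dim genes (0.01) and with arrays centred on all probe sets (0.03).

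The arrays can be compared through each gene's deviation from its own mean over the 4 arrays. The median deviation of the 43 members was 0.10 and 0.08 on the anti-DR3 arrays and -0.05 and -0.10 on the control arrays. For all genes tested the medians were 0.01 and 0.01 against -0.0046 and -0.01. Immune subunits spread most, with 0.19 and 0.25 against -0.32 and -0.19. The cap spread least among the groups that lay apart, with 0.10 and 0.06 against -0.04 and -0.05. Both anti-DR3 arrays lay above both control arrays for core, cap and immune subunits. Activators and assembly factors overlapped in this measure.

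**Figure D4:**
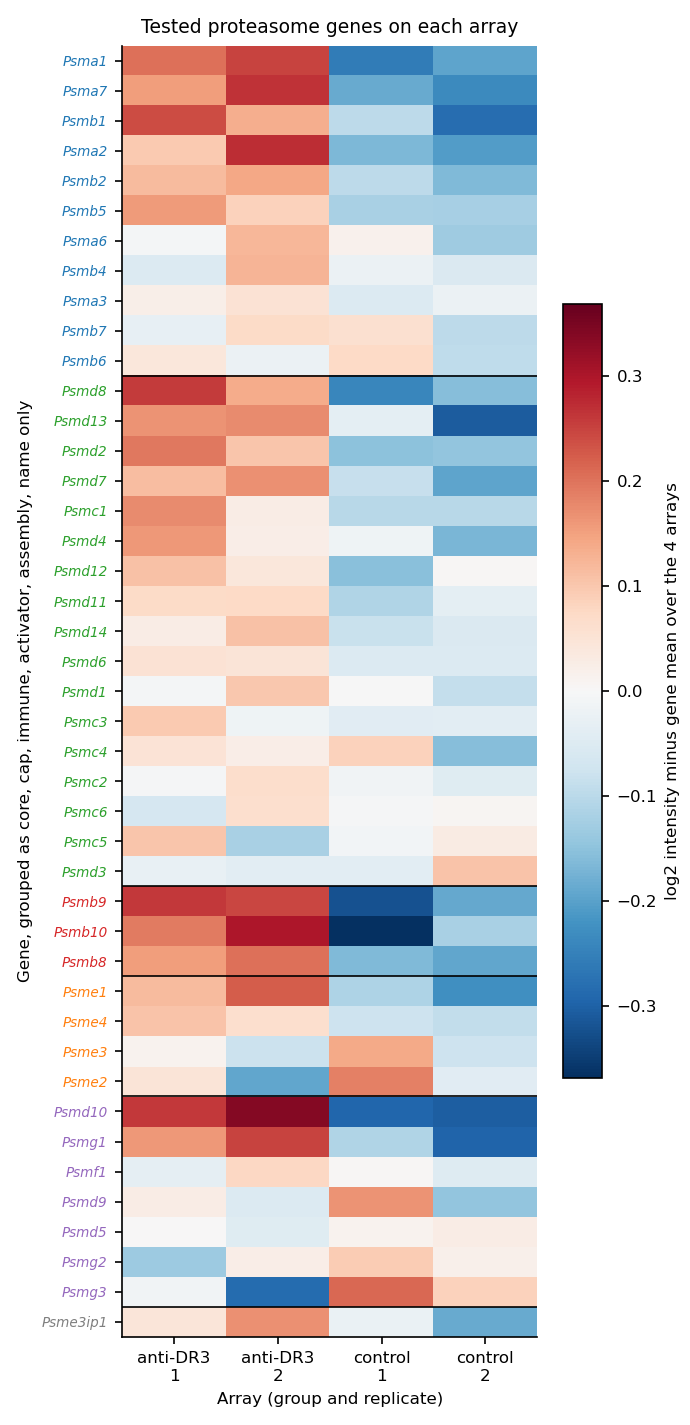
Deviation of each tested proteasome gene (y axis, ordered by role and then by difference, gene names coloured by role) from its mean over the 4 arrays (colour, log2 scale), for each array (x axis). The immune subunits are positive on both anti-DR3 arrays and negative on both control arrays, as are Psmd10, Psma1, Psma7, Psme1, Psme4 and Psmg1. Both anti-DR3 arrays lie above both control arrays for 27 of the 43 members (62.8%, against 31.6% of all genes tested). Psmg3 shows the reverse, and the other activators and assembly factors are mixed.

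The 6 members too dim to be tested were Psma5, Psma8, Psmb3, Psmb11, Psmg4 and Psmc3ip. Psmb11, the catalytic subunit of thymic epithelium, was at 4.40 to 4.76 on the 4 arrays, and Psma8, the alpha subunit of the testis, at 4.59 to 5.35. The array medians were 5.33 to 5.39. Psma5 and Psmb3, which are parts of every core particle, were also dim, at 4.24 to 4.75 and 5.14 to 5.29, so these probe sets give no measure of their change. Psmg2, Psma5 and Psmc2 had a second, dimmer probe set, with differences of -0.0039, 0.12 and -0.13. Psme3ip1 was tested and did not pass (0.21, adjusted p = 0.233, limma).

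Partners and regulators of the proteasome outside the naming rule were read from a list of 27 genes, of which 19 were tested. Of these 1 rose (4.49% of all genes did) and 0 fell (1.47%), with 11 positive and 8 negative differences and a median of 0.02. The rise was Sem1, a small lid subunit, at 8.59 and 8.73 on the anti-DR3 arrays against 8.24 and 8.20 on the control arrays, a difference of 0.44 ± 0.088 (adjusted p = 0.0464, limma). Pomp, the chaperone that matures the core, had a larger difference, 0.72 ± 0.19, but its control arrays were far apart at 7.42 and 6.80, against 7.85 and 7.82 (adjusted p = 0.0853, limma). Without control antibody replicate 1 its difference was 1.03 and passed (adjusted p = 0.0470, limma), and without control antibody replicate 2 it was 0.41. The difference of Vcp, the segregase that hands over substrates, was 0.25, and that of Txnl1, a redox protein bound to the cap, 0.27, and neither passed. The Vcp value rests on its brightest probe set, since with the mean of all its probe sets the difference was 0.015. Nfe2l1 and Nfe2l2, transcription factors of proteasome genes, overlapped at -0.06 and -0.04. Both anti-DR3 arrays lay above both control arrays for 6 of the 19 and below them for 3, where 31.6% and 24.6% of all genes did. The 3 were Ubqln4, Akirin2 and Ube3c, at -0.31, -0.18 and -0.08, and they did not pass.

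Genes of the interferon-gamma response and class I presentation were read beside the immune subunits, and of 13 tested 2 rose (4.49% of all genes did) and 0 fell, with a median of 0.35. Tap1, the neighbour of Psmb9 on chromosome 17, rose by 0.47 ± 0.083 (9.84 and 9.90 against 9.36 and 9.45, adjusted p = 0.0366, limma), close to the 0.51 of Psmb9. Psmb8 lies between Tap1 and Tap2, and Tap2 gave 0.38 (adjusted p = 0.140, limma). Gbp5, an interferon-induced GTPase, rose by 0.48 (adjusted p = 0.0392, limma). Tapbp, which loads class I molecules, and Gbp3 were at 0.44 and 0.48 and did not pass, and the transcription factors Irf1 and Nlrc5 at 0.35 and 0.20 did not either. Gbp4 gave 0.53, B2m 0.12, Erap1 0.09, Ifngr1 0.02 and Irf8 -0.02, and Ifngr2, a subunit of the interferon-gamma receptor, gave -0.23 with both anti-DR3 arrays below both control arrays. These 6 did not pass. With any 1 array left out Tap1, Gbp5 and Sem1 all lost their calls in limma, with adjusted p from 0.0703 to 0.203, from 0.101 to 0.214 and from 0.117 to 0.246, and likewise with arrays centred on the genes tested (0.0597, 0.0606 and 0.0685). With the replicate number as a block the adjusted p values were 0.05005, 0.0552 and 0.0704 in limma, so these calls ended there too.

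Markers of dividing cells and of other cell types also moved with the groups. For the counts that follow, 4.49% of all genes tested were called higher and 1.47% lower. Among 8 mitosis genes tested, 7 rose (Mki67, Ccna2, Ccnb2, Top2a, Aurkb, Kif11 and Plk1) and none fell. Their median was 1.53, with a summed intensity over 9 genes of 1808 to 1834 after anti-DR3 and 615 to 683 after control antibody. Of 4 tested B cell markers 3 rose (Ighm, H2-Aa and H2-Ab1), while Cd79b overlapped between the groups at 0.18 and did not pass. The summed intensity over 7 genes was 4369 to 4567 against 2834 to 3052. Most of that sum was the Ighm probe set (3990 to 4215 against 2539 to 2771), and the other 6 genes summed to 352 to 379 against 281 to 295, while Cd79a, Ms4a1 and Pax5 were dim on the 4 arrays. Of 4 tested myeloid markers 1 rose (Csf1r), while Fcgr3 had both anti-DR3 arrays below both control arrays at -0.30 and did not pass. The summed intensity over the 9 listed myeloid genes was 389 to 419 against 359 to 366. Adgre1, Cd14, Flt3, Zbtb46 and Xcr1 were dim, and Adgre1 gave -0.34. Of 2 tested CD8 T cell and natural killer markers 1 rose (Cd8b1), and Eomes overlapped between the groups at 0.05. Cd8a, Ncr1 and Klrb1c were dim, and the summed intensity over all 5 genes was 339 to 356 against 274 to 298. Of 4 tested markers of type 2 innate lymphoid cells 3 rose (Klrg1, Rora and Il9r), and Gata3 gave 0.24 and did not pass. The summed intensity over these 4 genes was 2101 to 2438 against 1091 to 1215. Gata3, Klrg1 and Rora are also known from Treg. The part of these in the differences of proteasome genes was not tested.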

How the data were processed

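RNA from sorted mouse Treg was measured on 4 Affymetrix whole-transcript arrays. The deposited file gives 1 linear intensity per probe set and array, from RMA (background correction, normalization between arrays and probe set summary), per the submitters' processing notes. The sources used here name no version or genome build. Normalization between arrays can hide a shift common to all genes, and the number of arrays limits the precision.

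The deposited intensities were put on a log2 scale, and of 41345 probe sets the 23521 with 1 symbol in the platform annotation gave 22180 genes, of which 12114 were bright enough to test. The test was limma's (version 3.58.1, R 4.3.3; lmFit and eBayes, two-sided, 2 residual and 3.94 prior degrees of freedom). P-values were adjusted by Benjamini-Hochberg over the 12114 genes, and 0.05 was the threshold. Ratios of catalytic subunits were compared with an exact permutation test. The code was tested on simulated data, where recovery was required only for changes larger than the difference of any member. This does not show how often a change of the members' size would be called. Alternatives covered the replicate block, each array left out, filters, normalization, variance model, probe set choice, threshold and pseudocount.

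Values on each array were given by rule: the 6 paired catalytic subunits, Psme1 to Psme4, members past the threshold, and the 2 of each role with the largest moderated statistic. Psma2, Psma3, Psmd13, Psmd14 and Psmg3 were added after their values were seen. From each pathway list, genes past the threshold and the 4 with the largest statistic could be named. The other interferon and class I genes, Nfe2l1, Nfe2l2, Ubqln4, Akirin2 and Ube3c were likewise added later. The members and lists were chosen with earlier results of these data known. Promoters are from RefSeq (GRCm38.p6), and figures were drawn with matplotlib.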

Additional observations from a re-analysis of the deposited data

Results flagged for a closer look

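A bright probe set whose annotation gives Psma4, an alpha ring gene, together with AY074887 was outside the members because it has several symbols. It read 8.60 and 8.65 on the anti-DR3 arrays against 8.22 and 8.17 on the control arrays, so both anti-DR3 arrays lay above both control arrays, with a difference of 0.43. It is listed here because it is a signal in values that no comparison used. It cannot be assigned to either gene, and the difference was not tested. A dim probe set with the same symbols overlapped between the groups, at 0.15.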

How the results depend on the processing

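Over 23 named members and their alternatives 305 values held both sign and call, 30 lost a call, 24 gained one and 9 turned sign, and over 15 named genes of the lists these counts were 175, 48, 16 and 0. The causes of these changes were not tested, beyond the fewer arrays or other genes an alternative uses. Members called higher in limma were 4 as reported, 0 with each array left out (0 core, 0 immune and 0 assembly members, with 1 residual degree of freedom and the lone array assumed to vary like the other group), 0 with no filter on dim genes (16 unadjusted) and 0 in an ordinary linear model (13 unadjusted), in both with 0 core, 0 immune and 0 assembly members. Of all genes 4.49% were called higher as reported, 0.0631% with no filter and 0% in the ordinary linear model. Members called were 7 under the stricter filter (1 cap, 3 immune), 16.3% against 6.11% of all genes. They were 1 with arrays centred on the genes tested (0 core, 0 immune), 2.33% against 2.87%. With arrays centred on all probe sets, added after seeing the data, they were 9 (3 core, 1 cap, 3 immune, 2 assembly), 20.9% against 7.83%. Quantile normalization gave 3 (1 core), 6.98% against 3.72%, and log2(value + 16) gave 8 (1 cap, 3 immune), 18.6% against 6.66%. A trended robust prior gave 12 (4 core, 3 cap, 3 immune, 1 activator), 27.9% against 8.93%. An adjusted p under 0.10 also gave 12 (4 core, 2 cap, 3 immune, 1 activator, 2 assembly), 27.9% against 9.67%. Members called lower were 0 in each of these.

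Medians with each array left out ran from 0.13 to 0.17 for the members, 0.21 to 0.24 for core, 0.11 to 0.14 for cap, 0.37 to 0.57 for immune, -0.0063 (without control antibody replicate 2) to 0.11 for activator and -0.034 to 0.069 (without control antibody replicate 1) for assembly genes. Centring on the genes tested gave 0.086 for members, 0.18 for core, 0.075 for cap, -0.0089 for activators and -0.083 for assembly genes. Centring on all probe sets gave 0.20, 0.30 and 0.19 for the first 3 and 0.031 for assembly genes. Quantile normalization gave 0.10, 0.20 and 0.083 for the first 3; no filter gave 0.10, 0.096 for core and 0.011 for assembly genes; log2(value + 16) gave 0.22 for core. With each array left out the 3 ratio changes were 0.05 to 0.18, 0.34 to 0.64 and 0.25 to 0.65 (Psmb8 over Psmb5, Psmb9 over Psmb6 and Psmb10 over Psmb7). Their sign could not turn there, since all 3 ratios lay apart between the groups. Centring the arrays and the replicate block cannot change these values at all. With quantile normalization they were 0.11, 0.47 and 0.45. With each array left out Psmb6 ran from -0.065 to 0.10, Psmb7 from -0.040 to 0.12 and Psme3 from -0.17 to 0.045. Psmb6 also turned to -0.041 with centring on the genes tested and -0.015 with quantile normalization, and Psmb7 to -0.023 and -0.0077.

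What the replicate numbers share is not stated. Differences between replicates correlated at 0.051 between the groups across genes, and with 2 pairs this does not show whether they were paired. With the replicate block limma called 2 members higher, Psmb9 and Psmd10 (4.65%, against 3.55% of all genes), and 0 core members.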
